A study of Mus musculus with 30 samples.

Results

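The myosin II motor genes of cultured mouse tail-tendon fibroblasts were examined: the 3 non-muscle and smooth muscle heavy chains Myh9, Myh10 and Myh11, the essential light chain Myl6, the regulatory light chains Myl9, Myl12a and Myl12b, and the light-chain kinase Mylk. The genes were taken by symbol, 8 of the 35972 genes held by both RNA tables, and every chromatin site that the authors annotated to them was added, 11 of 16367 sites in 5 lists. The series asked how mechanical cues and the co-regulators Yap and Taz act on chromatin and transcription. All groups were primary fibroblasts from tail tendon with a wildtype genotype, treated in medium with 0.1% serum; animals, age and strain are not given in the sources used here. RNA was sequenced from cells given the solvent DMSO, blebbistatin at 10 µM or Y27632 at 30 µM, with 3 libraries per group. ATAC libraries, which mark open chromatin, came from the same treatments, 3 libraries per group. A further 12 genomic DNA libraries formed 4 groups of 3, with doxycycline at 10 ng/mL, with blebbistatin, with both or with neither; what doxycycline induced is not stated in the labels.

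Myosin II is a hexamer in which paired heavy chains carry the motor and each holds an essential and a regulatory light chain. Phosphorylation of the regulatory light chain, by the calmodulin-dependent kinase Mylk and other kinases, lets the molecules assemble into filaments that pull on actin, and the phosphatase built from Ppp1cb and Ppp1r12a reverses it. Blebbistatin blocks the motor's ATPase directly, while Y27632 is a kinase inhibitor that reduces contraction. In fibroblasts this contractile machinery tensions the matrix, and several of its genes are known targets of serum response factor, which binds the CArG box.

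The stretches upstream of the 3 regulatory light-chain genes are shown because the log2 changes of these genes differed in size, which was not tested between genes. A CArG box is in capitals where it was found, and its part in any change was not tested. The stretches come from RefSeq on GRCm38.p6, which has the coordinates of mm10. They run 5′ to 3′ in the direction of transcription and hold only bases ahead of every RefSeq start of the gene. The stretch for Myl9 lies at chr2:156775214-156775407 on the plus strand, that for Myl12a at chr17:71002534-71002783 and that for Myl12b at chr17:70990517-70990766, both on the minus strand. The Myl6 line shows 30 bases at chr10:128493040-128493069 on the minus strand, around the box ahead of the downstream start of that gene.
Myl9: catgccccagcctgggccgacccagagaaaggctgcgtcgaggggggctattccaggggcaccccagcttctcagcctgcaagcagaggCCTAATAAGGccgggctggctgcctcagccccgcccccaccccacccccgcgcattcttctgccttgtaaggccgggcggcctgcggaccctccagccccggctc
Myl12a: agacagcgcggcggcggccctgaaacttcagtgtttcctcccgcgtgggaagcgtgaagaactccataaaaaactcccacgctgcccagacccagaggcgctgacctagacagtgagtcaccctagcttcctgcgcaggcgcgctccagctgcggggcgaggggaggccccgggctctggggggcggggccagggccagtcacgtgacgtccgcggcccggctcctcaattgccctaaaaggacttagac
Myl12b: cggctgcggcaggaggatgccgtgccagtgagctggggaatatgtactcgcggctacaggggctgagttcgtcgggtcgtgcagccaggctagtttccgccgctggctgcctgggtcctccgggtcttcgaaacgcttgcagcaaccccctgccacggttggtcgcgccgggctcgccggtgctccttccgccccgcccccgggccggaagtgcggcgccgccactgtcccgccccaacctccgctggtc
Myl6: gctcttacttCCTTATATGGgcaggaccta

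RefSeq promoters matched 7 of the 8 genes, with 8 start sites between them and the 250 bases ahead of each searched on both strands. The CArG box, a palindromic motif, was present in 2 of the 8 windows, 161 bases ahead of a Myl9 start that lies 56 bases inside the gene (105 bases ahead of the outermost start) and 50 bases ahead of a Myl6 start 877 bases inside the gene. Over 32851 mouse promoter windows of the same length, 1.47% held it. The letters GGAATG or CATTCC, the core of the motif bound by TEAD factors, the DNA-binding partners of Yap and Taz, were in 2 of the 8 windows, 7 bases ahead of the Myh10 start and 158 bases ahead of an internal Mylk start 39.8 kb inside the gene, against 12.6% of all windows. The motifs did not overlap in these windows. A match is a match of letters only.

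The RNA libraries held 23375386 to 37061737 reads in genes. Tendon fibroblast markers (Scx, Mkx, Tnmd, Thbs4, Fmod, Dcn, Col1a1, Col1a2 and Pdgfra) summed to 21440 to 23656 RPM (reads scaled to a common library total of all gene reads) over the 9 libraries, and all 9 were detected. Skeletal muscle markers summed to 6.33 to 7.49 RPM in DMSO, 8.20 to 9.32 in blebbistatin and 9.44 to 10.6 in Y27632. Myod1 and Ckm had 0 reads in every library, Myog and Myh4 at most 1, and Myh1 2 to 12. Tnnt3 had 70 to 279 reads per library, Actn3 39 to 120 and Acta1 9 to 39. Smooth muscle and pericyte markers summed to 332 to 337 RPM in DMSO, 251 to 257 in blebbistatin and 274 to 292 in Y27632. For the marker lists in this paragraph the background is the share of all genes called by limma, 26.1% higher and 26.9% lower with blebbistatin and 18.1% and 17.8% with Y27632. Of the 7 smooth muscle and pericyte markers tested, limma called 1 higher and 5 lower with blebbistatin, and 2 higher and 3 lower with Y27632. Tagln, too low to be tested against DMSO, had 8 to 12 reads per DMSO library, 3 to 15 with blebbistatin and 2 with Y27632. It was called higher with blebbistatin than with Y27632 (log2 difference 1.98, edgeR adjusted p = 0.0177). That call rests on few reads and was not checked by leaving out a library. Des had 5 to 12 reads per library. Immune markers summed to 47.4 to 54.1 RPM in DMSO, 73.5 to 84.4 in blebbistatin and 68.3 to 81.2 in Y27632, with 4 of 4 tested called higher in both and Cd3e at 0 throughout. Endothelial markers summed to 119 to 120.4, 81.0 to 91.7 and 108 to 114 RPM, with 1 called higher and 1 lower of 4 tested under blebbistatin and 0 higher and 1 lower under Y27632. Most of these reads were of Tek, with 2685 to 3134 per DMSO library, the gene called lower in both (log2 changes -0.63 and -0.14). Vwf, with 26 to 58 reads per DMSO library, was called higher with blebbistatin (0.68) and not called with Y27632 (0.42). Kdr (0.60 and 0.41) and Cdh5 (0.30 and 0.34) were higher in value and not called. Of tendon fibroblast markers, 4 were called higher and 3 lower of 9 with blebbistatin and 5 higher and 0 lower with Y27632. Of 3 skeletal muscle markers tested, 1 was called higher in each comparison and 0 lower. They were Actn3 with blebbistatin (log2 change 0.69) and Tnnt3 with Y27632 (1.10). The part of these shifts in the results below was not tested, and in bulk RNA fewer cells of a type and less RNA per cell cannot be told apart.

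Reads of the 8 genes together made up 2241, 2183 and 2179 RPM in the 3 DMSO libraries. With blebbistatin they made up 1703, 1723 and 1714 RPM, and with Y27632 1735, 1759 and 1783. All treated libraries lay below all DMSO libraries. The summed level with blebbistatin was 77.9% of that in DMSO, and with Y27632 it was 79.9%. These sums are in RPM, whereas the tests of single genes against DMSO use the authors' normalised counts, which are scaled differently. For Myh9, the gene with the most reads, blebbistatin gave 76.7% of DMSO in RPM but a fold of 0.724 in normalised counts. With Y27632 these values were 73.8% and 0.734. The closeness of the summed levels under the inhibitors may therefore depend on the scaling.

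With blebbistatin, 5 of the 8 genes fell (Myh9, Myl6, Myl9, Myl12a and Myl12b) and 1 rose (Mylk), by limma with Benjamini-Hochberg adjustment over all genes and an adjusted p under 0.05. In that comparison 53.0% of the 14882 genes tested were called, so the 75.0% of members called stands against a background of more than every second gene; 26.9% of all genes were called lower. With Y27632, 4 of the 8 fell (Myh9, Myl6, Myl9 and Myl12a) and 0 rose; 2 of the other 4, Myh10 and Myl12b, were lower in value and 2, Myh11 and Mylk, higher. In that comparison 35.9% of 14833 genes were called and 17.8% were called lower. The median log2 change of the 8 genes was -0.36 with blebbistatin and -0.10 with Y27632, beside 0.002 and 0.004 over all genes tested. All 8 genes passed the filter on low values in both comparisons. The comparisons share the 3 DMSO libraries, so their directions are not independent of each other.

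**Figure D1:**
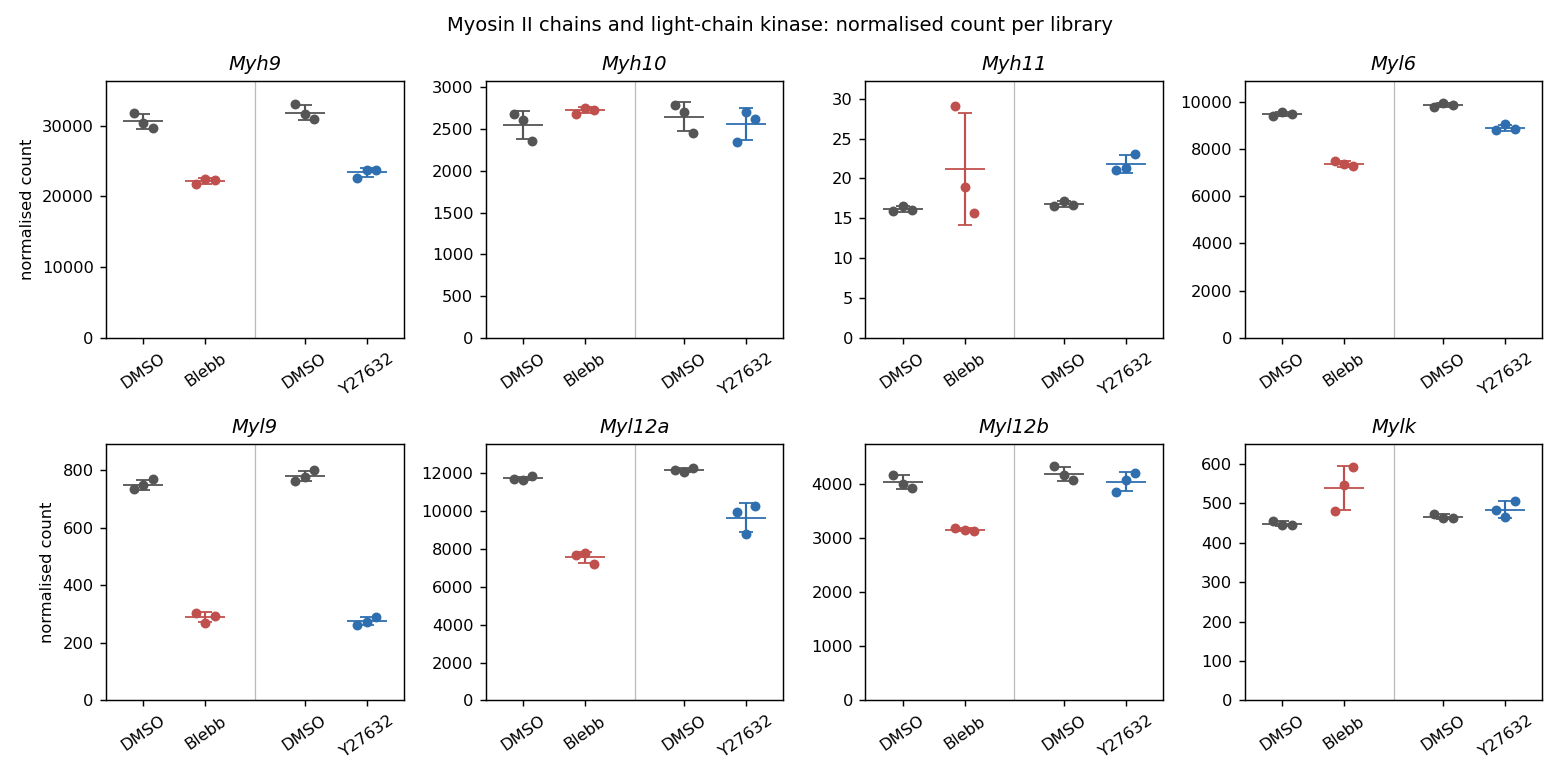
Normalised counts (y axes, linear from 0) of each gene in each library of DMSO and blebbistatin (left pair of a panel) and of DMSO and Y27632 (right pair), scaled separately by the authors; points are libraries, bars the mean and SD of 3. The treated libraries of Myl9, at 262 to 304, lie far below the DMSO libraries, at 735 to 799.8. The Myh10 libraries with Y27632 overlap the DMSO ones, with replicate 1 below them.

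Myh9 encodes the heavy chain of non-muscle myosin IIA, which drives most contraction in fibroblasts. Its normalised counts, reads divided by a size factor for each library, were 31773, 30417 and 29698 in DMSO and 21669, 22482 and 22356 with blebbistatin. In the Y27632 table they were 33031, 31577 and 30862 in DMSO and 22608, 23728 and 23769.8 with the inhibitor. No treated library reached the lowest DMSO library. Myh9 fell by 27.6% with blebbistatin (log2 change -0.47, SE 0.03, limma adjusted p = 1.53e-07) and fell by 26.6% with Y27632 (log2 change -0.45, SE 0.03, limma adjusted p = 5.74e-07). The levels under the inhibitors did not differ beyond their spread: the log2 difference, blebbistatin minus Y27632, was -0.01 in edgeR's quasi-likelihood test on the reads of all 9 libraries (adjusted p = 0.83), and the 95% interval from limma ran from -0.09 to 0.05.

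Myh10 encodes the heavy chain of non-muscle myosin IIB, a slower motor that stays attached to actin longer. Normalised counts were 2681, 2611 and 2363 in DMSO and 2686, 2758 and 2735 with blebbistatin. The treated libraries lay just above the DMSO ones, but the log2 change of 0.10 (SE 0.05) did not pass the test (limma adjusted p = 0.0927); without DMSO replicate 1 it was 0.13 and passed (adjusted p = 0.0385). With Y27632 the counts were 2342, 2703 and 2627 against 2787, 2711 and 2456, overlapping groups with a log2 change of -0.05 (SE 0.06, limma adjusted p = 0.504). Blebbistatin exceeded Y27632 by 0.16 on the log2 scale in edgeR's test (adjusted p = 0.0199). That call was lost without blebbistatin replicate 2 (adjusted p = 0.0554), without blebbistatin replicate 3 (0.0587) and without Y27632 replicate 1 (difference 0.09, adjusted p = 0.148).

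As a share of heavy-chain reads, Myh9 was lower and Myh10 higher in every treated library than in any DMSO library. These shares are tied, since nearly all heavy-chain reads come from these genes, and are not separate results. The Myh10 level itself was not called against DMSO with either inhibitor (log2 changes 0.10 and -0.05). Myh9 supplied 92.3% ± 0.279 (SD, n = 3) of the reads of the 3 heavy chains in DMSO, 89.0% ± 0.0946 with blebbistatin and 90.1% ± 0.427 with Y27632. Myh10 supplied 7.68% ± 0.28 in DMSO, 10.9% ± 0.0646 with blebbistatin and 9.85% ± 0.428 with Y27632. The groups did not overlap, and the exact permutation test, two-sided, gave p = 0.1 for each, the smallest p that 3 against 3 allows (0.109 adjusted over the 12 shares tested). Shares are of reads, not of molecules, since transcript lengths were not used, so they are compared only between groups.

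Myh11, the smooth muscle heavy chain and a marker of mature smooth muscle, was near the floor, with 14 to 28 reads per library. Its normalised counts were 15.9, 16.5 and 16.1 in DMSO and 29.1, 18.9 and 15.6 with blebbistatin. With Y27632 they were 21.0, 21.3 and 23.1 against 16.5, 17.2 and 16.7 in DMSO. Neither change passed limma's test: the log2 changes were 0.33 (SE 0.28, adjusted p = 0.361) and 0.36 (SE 0.24, adjusted p = 0.274). At this depth the intervals, from -0.29 to 0.94 and from -0.16 to 0.87, leave both a rise and a small fall possible.

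Myl6 encodes the essential light chain shared by non-muscle and smooth muscle myosin II, which stiffens the lever arm of the motor. Its normalised counts were 9411, 9567 and 9476 in DMSO and 7504, 7356 and 7255 with blebbistatin. With Y27632 they were 8809, 9040.2 and 8828 against 9783, 9932 and 9848. Neither treated group overlapped DMSO. Myl6 fell by 22.3% with blebbistatin (log2 change -0.36, SE 0.03, limma adjusted p = 4.47e-07) and fell by 9.77% with Y27632 (log2 change -0.15, SE 0.03, limma adjusted p = 0.00116). The level under blebbistatin was lower than under Y27632 by a log2 difference of -0.20 (edgeR adjusted p = 2.03e-05).

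Myl9, the regulatory light chain also found in smooth muscle myosin, had the largest log2 change of the 8 genes under either drug. Its normalised counts were 735, 748 and 769.7 in DMSO and 304, 269.7 and 294 with blebbistatin. In the Y27632 table they were 764, 776 and 799.8 in DMSO and 262, 275 and 291 with the inhibitor. The highest treated library, at 304, was far below the lowest DMSO library. Myl9 fell by 61.4% with blebbistatin (log2 change -1.37, SE 0.06, limma adjusted p = 3.84e-09) and fell by 64.6% with Y27632 (log2 change -1.50, SE 0.06, limma adjusted p = 3.33e-09). Ordered by size, this was place 207 of the 4009 genes called lower with blebbistatin and place 22 of the 2640 called lower with Y27632. Of the 4 genes called lower in both comparisons, Myl9 alone had the larger fall in normalised counts with Y27632. In RPM this held for Myh9 too, at 73.8% of DMSO with Y27632 and 76.7% with blebbistatin. The Myl9 levels under the inhibitors did not pass the test of their difference (log2 difference 0.13, edgeR adjusted p = 0.112, limma interval -0.02 to 0.26).

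Smooth muscle actin Acta2, the smooth muscle marker with the most reads in DMSO, fell along with Myl9. Its log2 change was -0.97 with blebbistatin (SE 0.06, limma adjusted p = 4.86e-08) and -0.77 with Y27632 (SE 0.04, limma adjusted p = 6.13e-09). Other genes of that list went the other way: Cspg4, a pericyte marker, was called higher with both (log2 changes 0.23 and 0.27), and Mcam was called higher with Y27632 (0.53, limma adjusted p = 0.0129). The part of other cell types in the fall of Myl9 was not tested.

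Myl12a and Myl12b encode near-identical regulatory light chains of non-muscle myosin and sit side by side on chromosome 17. How the authors counted reads that fit both copies is not given in the sources used here, so the split between them is uncertain. Myl12a had normalised counts of 11685, 11635 and 11827 in DMSO and 7658, 7791 and 7219.8 with blebbistatin. With Y27632 it had 9956, 8768 and 10236 against 12148, 12078 and 12290.2. Both treated groups lay wholly below DMSO. Myl12a fell by 35.5% with blebbistatin (log2 change -0.63, SE 0.03, limma adjusted p = 1.08e-08) and by 20.9% with Y27632 (log2 change -0.34, SE 0.05, limma adjusted p = 0.000112).

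The neighbouring copy Myl12b had normalised counts of 4170.1, 4011 and 3921 in DMSO and 3186, 3159 and 3137 with blebbistatin. With Y27632 it had 3859, 4075 and 4207 against 4335, 4164 and 4074. It therefore lay below DMSO in every blebbistatin library. With Y27632 the groups overlapped in part, with replicate 1 below every DMSO library. Myl12b fell by 21.6% with blebbistatin (log2 change -0.35, SE 0.03, limma adjusted p = 2.64e-06). With Y27632 its log2 change was -0.05 (SE 0.04, limma adjusted p = 0.331), with an interval from -0.13 to 0.03.

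Between the inhibitors, both copies were lower with blebbistatin, Myl12a by a log2 difference of -0.29 (edgeR adjusted p = 0.00014) and Myl12b by -0.29 (edgeR adjusted p = 9.83e-06). Each difference is larger than the spread between libraries, and neither call was lost when any of the treated libraries was left out.

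The share of Myl9 among regulatory light-chain reads was lower in every treated library than in any DMSO library. Myl9 supplied 4.43%, 4.56% and 4.66% of the reads of the 3 genes in the DMSO libraries (95% Wilson intervals, which cover counting error only, from 4.13% to 5.02%). It supplied 2.73%, 2.40% and 2.76% with blebbistatin and 1.86%, 2.09% and 1.98% with Y27632. The 3 groups did not overlap. The mean share differed from DMSO by -1.92 percentage points with blebbistatin and by -2.57 with Y27632 (exact permutation test, two-sided, p = 0.1 for each, 0.109 adjusted over 12 shares). Measured against Myl12a alone, which leaves out Myl12b, the Myl9 share was 6.02% ± 0.0985 (SD, n = 3) in DMSO, 3.69% ± 0.305 with blebbistatin and 2.79% ± 0.235 with Y27632. Myl12b supplied 24.4% ± 0.699 in DMSO and more in every treated library, 28.7% ± 0.661 with blebbistatin and 29.0% ± 1.87 with Y27632. This share rose because the other genes fell more: the Myl12b level itself fell by 21.6% with blebbistatin and was not called with Y27632. Myl12a supplied 71.0% ± 0.584, 68.6% ± 0.828 and 69.0% ± 1.98, and with Y27632 its libraries overlapped DMSO (exact permutation p = 0.2).

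**Figure D2:**
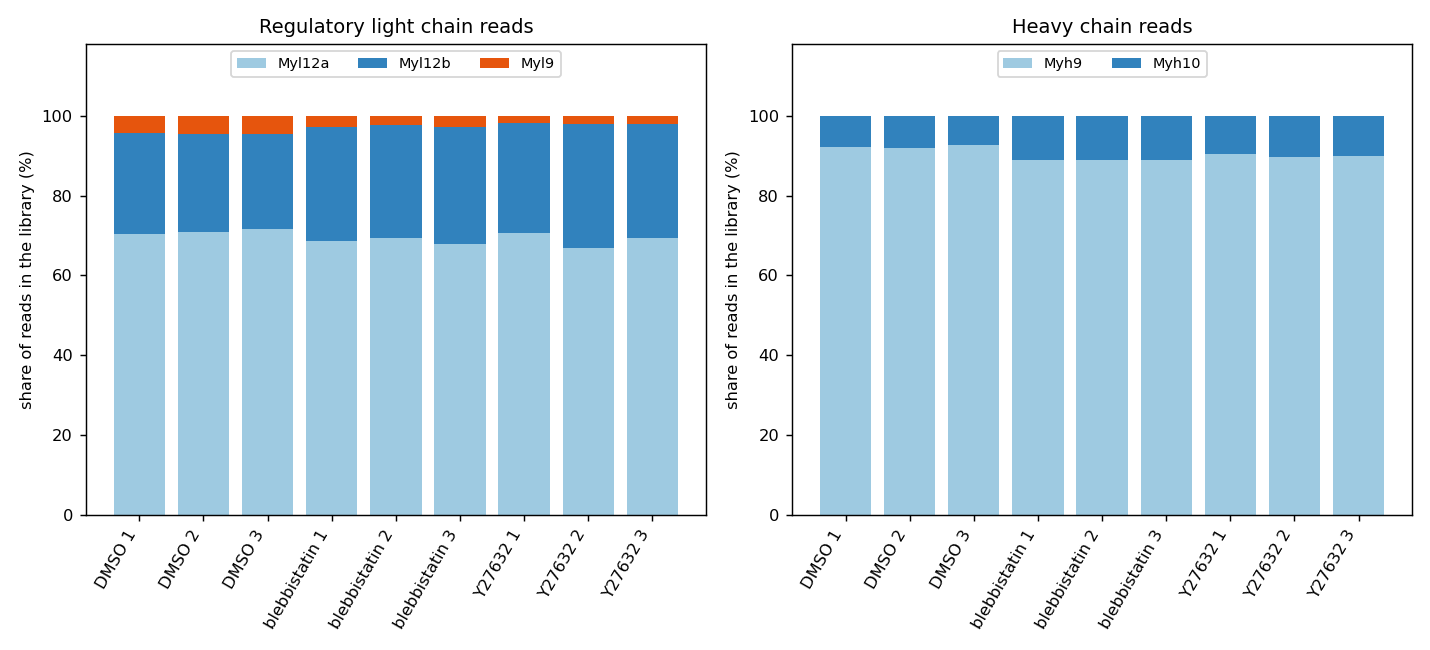
Share of reads in each of the 9 RNA libraries (y axis, percent, stacked) of the regulatory light chains (left) and of the heavy chains Myh9 and Myh10 (right; Myh11, at 14 to 28 reads per library, is not drawn). The Myl9 band is 4.43% to 4.66% in DMSO and 1.86% to 2.76% in the treated libraries.

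Mylk encodes myosin light-chain kinase; reads of its long and short kinase forms and of the kinase-free telokin product are pooled in the gene count. Its normalised counts were 455, 446 and 445 in DMSO and 479.9, 547 and 591 with blebbistatin. With Y27632 they were 483, 464 and 505 against 473, 463 and 462. The blebbistatin libraries lay above DMSO and spread widely, while the Y27632 libraries overlapped DMSO. Mylk rose by 19.8% with blebbistatin (log2 change 0.26, SE 0.08, limma adjusted p = 0.0115), the 1 rise among the 8 genes; without blebbistatin replicate 3 the log2 change was 0.19 and the call was lost (adjusted p = 0.0544). With Y27632 the log2 change was 0.05 (SE 0.06, limma adjusted p = 0.511). The difference between the inhibitors was 0.23 (edgeR adjusted p = 0.0131), a call lost without blebbistatin replicate 3 (adjusted p = 0.0895) and without Y27632 replicate 2 (adjusted p = 0.064).

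Compared directly, 5 of the 8 genes differed between the inhibitors: Myh10 and Mylk were higher with blebbistatin, and Myl6, Myl12a and Myl12b were lower. Of the 15262 genes tested, 52.4% were called, 26.5% higher and 25.8% lower with blebbistatin. The count was 3 of 8 without blebbistatin replicate 3. The doses, 10 µM of blebbistatin and 30 µM of Y27632, are not matched, and the compounds act on different proteins.

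**Figure D3:**
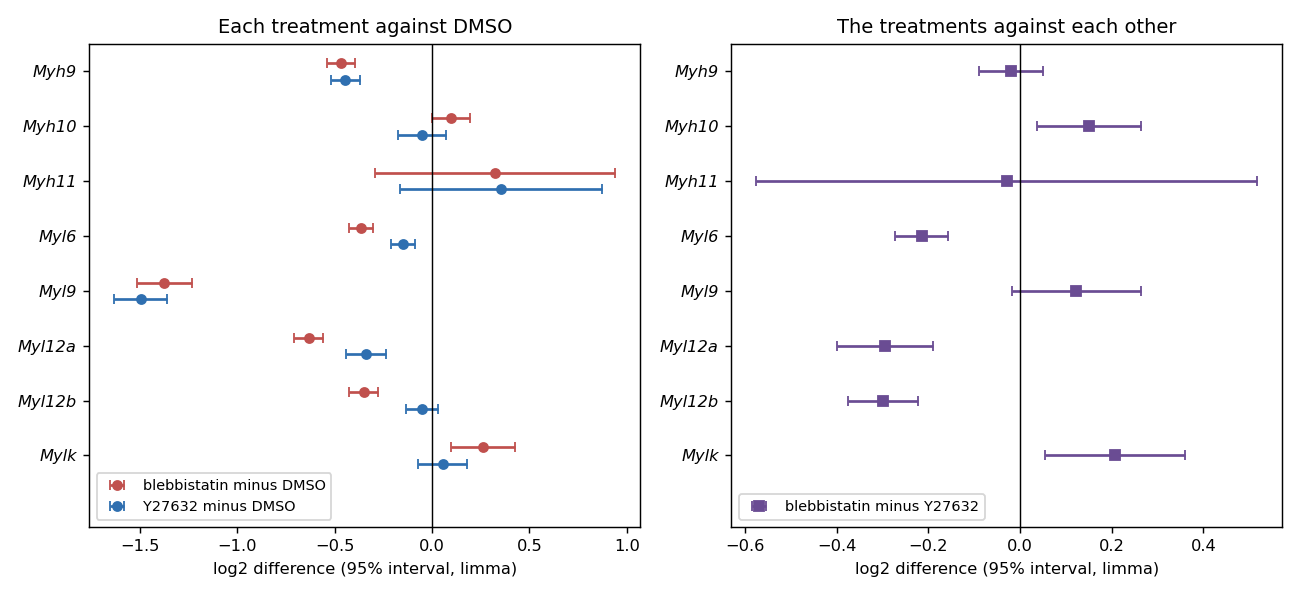
Log2 differences (x axes) with 95% intervals from limma for the 8 genes (y axes): each inhibitor minus DMSO on the left, blebbistatin minus Y27632 on the right. Myl9 stands lowest on the left, at -1.37 and -1.50, and its interval on the right, -0.02 to 0.26, includes 0.

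Of the genes called in both comparisons with DMSO, the neighbours in pattern were sought among 11280 genes whose mean normalised count was 100 or more, by the distance between the pair of log2 changes (3 libraries per group, 9 in all). For Myh9 they were Gpr173 and Thsd1, for Myl6 Tecpr2 and Iba57, and for Myl12a Cgref1 and Tmem97, at distances of 0.00886 to 0.0236. The nearest to Myl9 were Tdrkh at 0.125 and Trib3 at 0.178, and 0 genes lay within 0.1, whereas 67, 385 and 81 genes did so for Myh9, Myl6 and Myl12a. Few of the genes called lower fell as much as Myl9, at place 207 of 4009 with blebbistatin and place 22 of 2640 with Y27632. A low count of neighbours can come with a large change, so it is not read as a separate trait of Myl9. Trib3, a stress-response pseudokinase, had log2 changes of -1.53 and -1.41.

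The remaining class II myosin genes, mostly those of skeletal and heart muscle, summed to 10.9 to 15.5 RPM in any library, and 4 of 19 passed the filter. Myh7b, a slow muscle heavy chain, rose with blebbistatin from 9.93, 8.83 and 17.2 to 21.8, 23.8 and 30.3 normalised counts (log2 change 1.06, SE 0.31, limma adjusted p = 0.0114). Myl6b, an essential light chain that lies beside Myl6 on chromosome 10, rose from 196, 179 and 145 to 207, 220.3 and 228 (log2 change 0.34, SE 0.11, limma adjusted p = 0.0238). The atrial light chain Myl4 (log2 change 0.03) and the fast muscle regulatory light chain Mylpf (0.12) did not pass the test with blebbistatin, and 0 of the 4 passed it with Y27632, where 3 of them, Myh7b (0.73), Myl6b (0.29) and Mylpf (0.09), were higher in value and Myl4 (-0.26) lower. The limma adjusted p with Y27632 was 0.098 for Myh7b, at 8 to 31 reads per library, and 0.0585 for Myl6b.

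The enzymes and partners that act on myosin II were followed in 3 lists of 33 genes, of which 30 could be tested with blebbistatin and 29 with Y27632. Blebbistatin raised 6 and lowered 14 of them and Y27632 raised 6 and lowered 10, beside backgrounds of 26.1% and 26.9% of all genes with blebbistatin and 18.1% and 17.8% with Y27632. The median log2 change over the lists was -0.04 with blebbistatin and -0.07 with Y27632.

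Among 12 light-chain kinases tested, 5 rose and 5 fell with blebbistatin and 4 rose and 2 fell with Y27632. Dapk1, a calmodulin-dependent death-associated kinase, rose with both, by 0.87 and 0.51 on the log2 scale. Cdc42bpg, a kinase downstream of Cdc42, rose by 0.87 and 0.22.

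Of 8 phosphatase genes tested, 0 rose and 3 fell with blebbistatin, and of 7 tested 1 rose and 4 fell with Y27632, a count of 5 called that dropped to 3 without any 1 library other than DMSO replicate 3. This phosphatase opposes the kinases. The catalytic subunit Ppp1cb had log2 changes of -0.25 with blebbistatin (limma adjusted p = 4.23e-05) and -0.10 with Y27632 (adjusted p = 0.0253), the second call being lost in 5 of 6 fits that left out a library. The targeting subunit Ppp1r12a did not pass the test in either comparison (log2 changes 0.02 and 0.04), whereas its relative Ppp1r12b fell with Y27632 by 0.53 on the log2 scale (limma adjusted p = 3.07e-05) and was at 0.16 with blebbistatin (adjusted p = 0.102). Prkg1, a cyclic GMP-dependent kinase that activates the phosphatase, fell by 0.41 and by 0.61. The difference between the inhibitors was 0.70 for Ppp1r12b (edgeR adjusted p = 1.57e-06).

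Of 10 partners of the myosin II filament, 1 rose and 6 fell with blebbistatin and 1 rose and 4 fell with Y27632. Lurap1l, related to the adaptor that links MRCK kinases to myosin 18A, had normalised counts of 3819.7, 3924 and 4019.6 in DMSO and 966, 1117 and 981 with blebbistatin (log2 change -1.94, SE 0.05, limma adjusted p = 4.46e-11). With Y27632 its log2 change was -0.56. Shroom3, which drives apical constriction of epithelial cells, fell by 1.81 and 0.61 on the log2 scale. Limch1, an activator of non-muscle myosin IIA, fell by 1.33 with blebbistatin and was at -0.07 with Y27632 (limma adjusted p = 0.538), and the difference between the inhibitors was -1.22 (edgeR adjusted p = 1.47e-06). Cald1, the actin- and myosin-binding protein caldesmon, fell by 0.65 and by 0.28. Lurap1l, Shroom3, Limch1 and Cald1 were all lower with blebbistatin than with Y27632 in edgeR's test, with adjusted p of at most 1.47e-06.

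**Figure D4:**
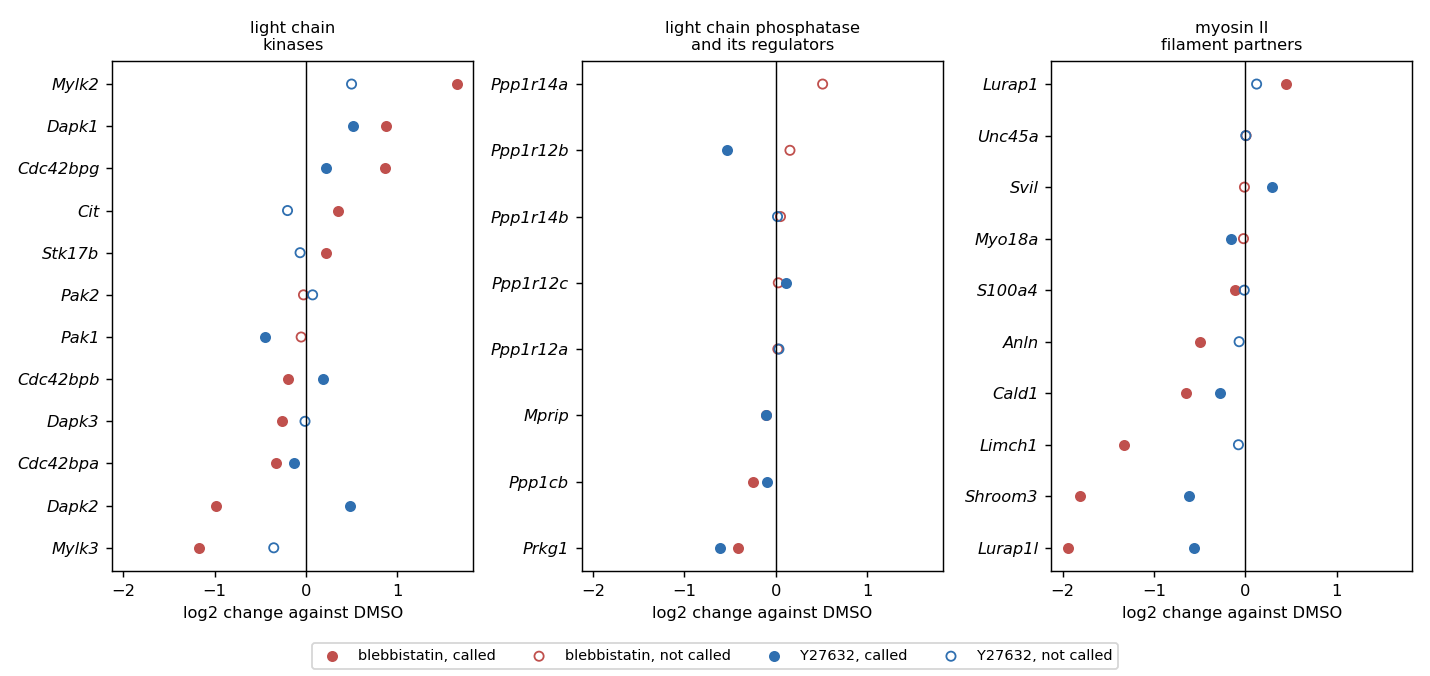
Log2 change against DMSO (x axes) of each tested gene of the 3 lists (y axes, ordered by the blebbistatin value), red for blebbistatin and blue for Y27632; filled points passed limma's test at an adjusted p under 0.05. Lurap1l stands at -1.94 in red and -0.56 in blue, and Limch1 at -1.33 in red and -0.07 in blue.

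The site lists give, for each region, the authors' mean log2 signal of each group, a log2 fold and a false discovery rate (FDR), and no value per library, so the sites were not tested here. The lists hold only sites past the authors' thresholds, which sets their directions as a whole: 98.2% of the 970 ATAC sites with blebbistatin are lower. In the authors' deposited table of ATAC with blebbistatin, 2 of 970 sites were annotated to the 8 genes, and in that with Y27632 0 of 207 were. Absence from a list says only that a site did not pass there.

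Of the blebbistatin ATAC sites, 1 lies inside Myl12a on mm10 and the other at its 3′ edge. The site in intron 1 of Myl12a, chr17:70999249-70999528, had a mean log2 signal of 5.94 with blebbistatin and 7.58 in DMSO, a fold of -1.64 with an FDR of 0.0209 in the authors' deposited table. The other, chr17:70993619-70993801, shares 9 of its 183 bases with the 3′ end of Myl12a, lies otherwise between Myl12a and Myl12b, and was assigned by the authors to Myl12b, whose start is 3.19 kb away; it had 4.93 against 6.45, a fold of -1.52 with an FDR of 0.0207 in the authors' deposited table. The authors' motif column, headed with a TEAD motif, has an entry at both, as at 603 of the 970 sites (62.2%). These motif sequences are shown as the letters the authors matched, on the plus strand, with GGAATG in capitals.
Myl12a intron 1 site: aGGAATGcag
Myl12b-assigned site: aGGAATGtct

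The intron 1 site of Myl12a appeared again in the experiment with doxycycline groups. In the authors' deposited table for blebbistatin without doxycycline, chr17:70999257-70999489 had 6.12 with blebbistatin and 7.11 with neither drug, a fold of -1.0 and an FDR of 0.00771. It lies wholly inside the ATAC site, sharing 233 bases, and the lists share no libraries. By size of fold it was place 385 of 970 in the first list and place 1191 of 1231 in the second. Myl12a RNA fell with blebbistatin, whereas with Y27632, where Myl12a RNA also fell, the site was not on the list.

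A site in intron 13 of Myh10 on chromosome 11 was on all 3 lists of the doxycycline experiment. In the authors' deposited table for doxycycline without blebbistatin, chr11:68770225-68770544 had 6.94 with doxycycline and 5.51 with neither drug, a fold of 1.43 (FDR 3.81e-09). In the authors' deposited table for blebbistatin with doxycycline, the same interval had 5.67 with both and 6.94 with doxycycline alone, a fold of -1.27 (FDR 1.14e-08). Without doxycycline, chr11:68770292-68770432, inside it, had 4.15 with blebbistatin and 5.36 with neither, a fold of -1.21 (FDR 0.015) in the authors' deposited table. The site was thus listed higher with doxycycline and lower with blebbistatin in either doxycycline state. Nearly all sites of these blebbistatin lists are lower, 99.0% without doxycycline and 99.8% with it, so that direction is shared by the lists. The lists share groups, so these directions are not independent. The site lies 78.5 kb from the annotated start, and Myh10 RNA was not called with blebbistatin.

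The doxycycline list, in which 4.15% of 7613 sites are lower, held 6 sites annotated to these genes, 5 higher and 1 lower. In the authors' deposited table, a site at chr16:14298522-14298760, 7.23 kb from the Myh11 start, had the largest fold of the 6, at 1.89 (5.33 against 3.43, FDR 9.34e-05), place 195 of 7613. That site lies outside Myh11, and the authors' annotation places it at the end of another transcript. Intron 1 of Myh9 held a site at chr15:77820799-77821069 with a fold of 1.06 and another at chr15:77823761-77823895 with a fold of 1.07 in the authors' deposited table. Intron 2 of Mylk held a site of each direction in the authors' deposited table, chr16:34825408-34825682 with a fold of 1.04 and chr16:34839448-34839579 with a fold of -1.45. The series holds no RNA library from cells given doxycycline.

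**Figure D5:**
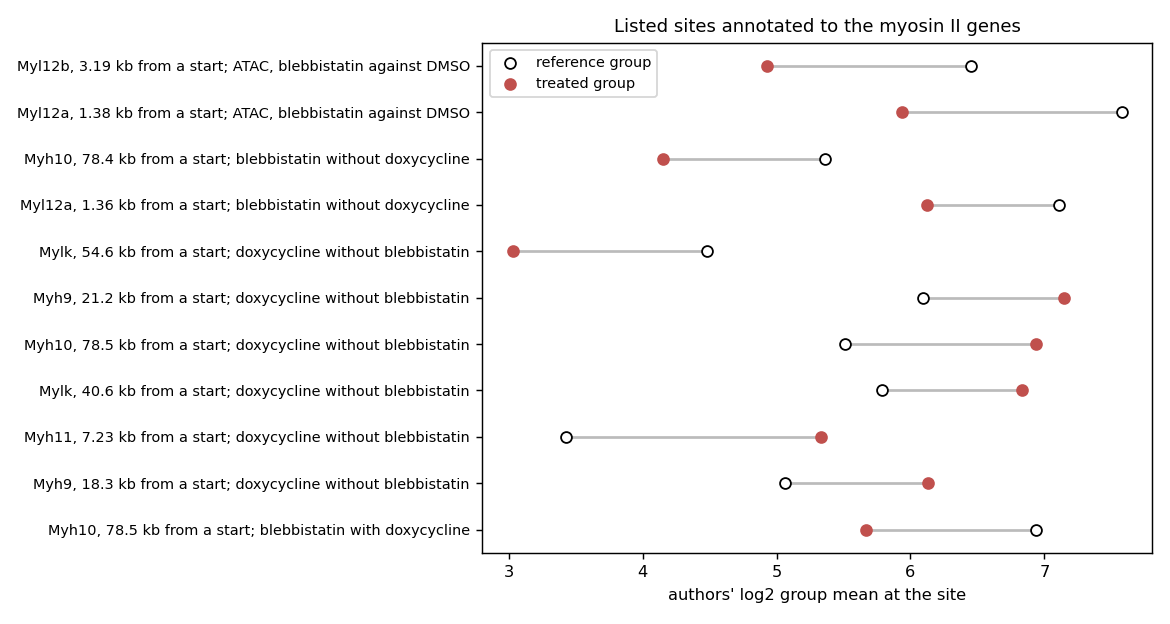
Authors' mean log2 signal (x axis) of the treated group (filled) and its reference group (open) at each of the 11 listed sites (rows, with gene, distance to a start and list). All 5 sites of blebbistatin lists have the filled point to the left, and 5 of 6 sites of the doxycycline list have it to the right. Over all sites of those lists, 98.2% (ATAC), 99.0% (without doxycycline) and 99.8% (with doxycycline) are lower with blebbistatin. In the doxycycline list 4.15% are lower.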

How the data were processed

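The 8 genes and the gene lists were chosen with earlier results of these data known. Per the submitters' processing notes, HISAT2, featureCounts, DESeq2, Bowtie2, SAMtools, Picard, MACS2, DiffBind and HOMER and the build mm10 were used; their settings are not given in the sources used here. The authors deposited RNA signal as normalised counts, in 2 tables scaled separately. Dividing by the value of 1 read gave whole reads (within 0.1) for 100% of values above 0, and the DMSO reads came out identical in both tables. Log2 fold changes and p-values in the deposited tables are the authors', as are the site lists' log2 group means, log2 folds, FDR and the other value used, the distance to a start, per the file headers. The header of the reference group in the doxycycline list names blebbistatin, but the values were those of the group with neither drug (mean difference -0.13 at 13 shared sites, SD 0.0044, against 1.12), and it was read so.

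Here, genes whose mean normalised count reached 10 were tested in R 4.3.3 with limma 3.58.1 with a trend on log2(normalised count + 1), a scale that understates changes of low genes. The inhibitors were compared with the quasi-likelihood test of edgeR 4.0.16, with TMM scaling, on whole reads of all 9 libraries. Adjusted p-values are Benjamini-Hochberg values over all genes, with calls at an adjusted p under 0.05. Both tests were run on simulated libraries of an inhibitor and DMSO, with far fewer changed genes than were called here. The comparison of the inhibitors on all 9 libraries was not simulated, so that check does not cover it. Labels do not say that replicates came from separate cultures or animals, so p-values measure only the spread between libraries. The pathway genes named are Ppp1cb, Ppp1r12a and those called with an absolute log2 change of at least 0.5 and a mean of at least 100 (some genes that meet the rule are left out of the lists and not reported here); also named are other class II myosins with a mean of at least 10 and the 2 nearest patterns per member called in both comparisons with DMSO. Acta2, Tagln, Des, Cspg4, Mcam and the skeletal muscle and endothelial markers named were singled out after their values were seen. Sequences are RefSeq's, GRCm38.p6. Alternatives were other pseudocounts, filters, scalings and tools (DESeq2 1.42.0), a replicate block and leaving out each library.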

Additional observations from a re-analysis of the deposited data

How the results depend on the processing

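Calls of the 8 genes kept their direction and side of the threshold in 306 of 318 alternatives, those of named pathway genes in 377 of 388 and list counts in 113 of 120. Leaving out a library in turn gave 5 to 7 of the 8 genes called with blebbistatin, 4 in every fit with Y27632 and 3 to 5 between the inhibitors (3 without blebbistatin replicate 3). Differences in the Myl9 share ranged from -1.98 to -1.80 points with blebbistatin and from -2.63 to -2.52 with Y27632, and without Myl12b were -2.33 and -3.23. Same-numbered libraries of DMSO and a treatment correlated at -0.09 to 0.02 in their deviations, so the numbers do not pair them. With a replicate block 6, 4 and 5 of the 8 genes were called, of 7604, 4633 and 7759 genes in all, and the call of Ppp1cb with Y27632 was lost (adjusted p = 0.0629). Signs turned, in values that passed no test: leaving out a library gave -0.11 to 0.0096 for Myh10 and -0.14 to 0.020 for Limch1 with Y27632 (above 0 without Y27632 replicate 1), -0.014 to 0.061 for Ppp1r12a with blebbistatin (below 0 without blebbistatin replicate 3) and -0.27 to 0.18 for Myh11 between the inhibitors (below 0 without blebbistatin replicate 1, Y27632 replicate 1 or 2, and -0.029 in limma). The cause was not tested. The phosphatase list, 5 called with Y27632, had 2 called with the block and 3 without any library but DMSO replicate 3; between the inhibitors it had 2 without Y27632 replicate 1. Prkg1 lost its call between the inhibitors without blebbistatin replicate 2 or Y27632 replicate 1. Myh11, at 14 to 28 reads, is limited by depth.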
